A study of Mus musculus with 4 samples.

Results

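Summed transcript counts of 2 wounds and 2 unwounded sections of PITX1+ mouse dorsal skin were compared over a panel of 328 genes measured by Xenium in situ, an assay that decodes and places single RNA molecules in a tissue section. The sections were the second and the third, by position, on the slide of wounded male skin and on the slide of unwounded male skin. They held 171410 of the 426792 cells with at least 10 transcripts in the whole series, and all 328 panel genes entered. PITX1+ denotes Tet-On, TRE-*Pitx1*/*Krt5*-rtTA mice fed chow with doxycycline, which switches on the transgene in cells that drive *Krt5*, chiefly basal keratinocytes. Control denotes littermates of the same genotype on normal chow. The wounds were full-thickness excisions taken on day 4 after wounding, and 1 Control section, wounded or not, lay first on each slide and is given alongside. Ages were not given in the sources used here. Each condition lay on 1 slide, so wounding cannot be told apart from slide. Wounds were cut at the midline before embedding. The methods keep only the last wound of each mouse for this assay, which would put the PITX1+ wounds on separate mice, but no label ties a section to a mouse, so p-values measure only the spread between these sections.

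Skin heals in overlapping phases in which neutrophils and then monocytes enter along gradients of CXC and CC chemokines, fibroblasts remodel the matrix with metalloproteinases, and keratinocytes at the margin switch to stress keratins and crawl over the wound bed. Hair follicles of the growth phase are built by matrix cells that secrete Sonic hedgehog, whose receptor Patched 1 is itself a target of the pathway. PITX1 is a homeodomain factor of hindlimb and oral epithelium that dorsal epidermis does not normally make.

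The Control and the 2 PITX1+ unwounded sections held 12684, 38248 and 28005 cells, and the Control and the 2 PITX1+ wounds 18276, 38198 and 66959. Summed transcripts ranged from 446626 in the Control unwounded section to 5368511 in PITX1+ wound 2, with 2809657 in the shallowest PITX1+ section. Counted by cells with at least 3 genes detected (16926, 41668 and 28900, a looser count than the one above), each male unwounded section lay within 0.493% of a total listed by the study for its condition and at least 41.5% from any total of the other condition. No such totals were used for the wounds, whose conditions follow from the order of the sections alone. The eschar, which the study left out of its analysis, was not separated here.

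*Pitx1* was counted at 11.2 transcripts per 1000000 transcripts of the section (CPM) in Control unwounded skin and at 727 and 437 in the PITX1+ unwounded sections. The Control wound held 53.8 CPM and the PITX1+ wounds 340.5 and 134. Every male PITX1+ section thus lay above both male Control sections, and the PITX1+ wounds lay below the PITX1+ unwounded sections without passing the test (log2 fold change -1.19, standard error (SE) 0.54, Benjamini-Hochberg adjusted p = 0.101, edgeR's quasi-likelihood test). In cells of the epithelial gate, where the transgene is driven, and per 1000000 transcripts of genes that define no gate, the values were 1349 and 1036 CPM unwounded and 782 and 389 CPM wounded (log2 fold change -0.76, SE 0.45, adjusted p = 0.260 by edgeR). It passed without PITX1+ unwounded section 2 (-1.54, adjusted p = 0.0258) and with transcripts over the nucleus alone (-1.55, adjusted p = 0.0415). On the female unwounded slide, used below as an alternative, the 2 sections taken as PITX1+ by their number of cells held 53.7 and 63.5 CPM of *Pitx1* and the 2 taken as Control 76.3 and 53.8 CPM. *Pitx1* thus overlapped between the female sections taken as PITX1+ and the female Controls. By cells with at least 3 genes detected, those taken as PITX1+ lay 0.332% and 0.0856% from a PITX1+ total of the study. The nearest Control totals were 237% and 299% away. Density was 5891 and 6361 cells per mm² in them and 2882 and 2194 in the female Controls. Their condition was not tested further, and every value given below with female sections rests on it. With the female sections in place of the male ones the whole-section difference of *Pitx1* was 1.94 on the log2 scale. It then passed in the other direction (adjusted p = 0.000768 by edgeR). Panel probes do not separate transgenic from endogenous transcripts.

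Leukocytes made up a larger and keratinocytes a smaller share of cells in the PITX1+ wounds than in PITX1+ unwounded skin, and cells lay closer together. Cells were gated by markers, an epithelial gate on keratins and adhesion genes such as *Krt5* and *Trp63*, a leukocyte gate on genes such as *Ctss* and *Cd52*, and a stromal gate on genes such as *Col1a1* and *Pdgfra*. Leukocyte-gated cells made up 9.12% and 9.41% of cells in the unwounded sections and 30.9% and 37.5% in the wounds. Epithelial-gated cells made up 48.5% and 42.6% unwounded and 27.2% and 16.0% in the wounds. The groups did not overlap in either share of cells, with mean differences of 24.9 and -23.9 percentage points. Per area, leukocyte-gated cells numbered 463 and 376 per mm² unwounded and 1954 and 3351 per mm² in the wounds. Epithelial-gated cells numbered 2463 and 1700.4 per mm² unwounded and 1724 and 1431 per mm² in the wounds, so the groups overlapped per area. Stromal-gated cells, at 24.0% and 34.7% against 19.9% and 26.1%, overlapped between the groups. Over all cells, without the minimum of 10 transcripts, the stromal share was 21.7% and 33.6% against 13.7% and 21.0% and did not overlap (exact permutation p = 0.333). Density was 5079 and 3994 cells per mm² of occupied tissue in unwounded skin and 6332 and 8946 in the wounds, again without overlap. The Control wound held 23.3% leukocyte-gated cells against 11.2% in Control unwounded skin, and 23.0% epithelial-gated cells against 25.8%. With 2 sections against 2, the two-sided exact permutation p was 0.333 for density and for the epithelial and leukocyte shares, the smallest this design allows, and 0.667 for the stromal share.

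**Figure D1:**
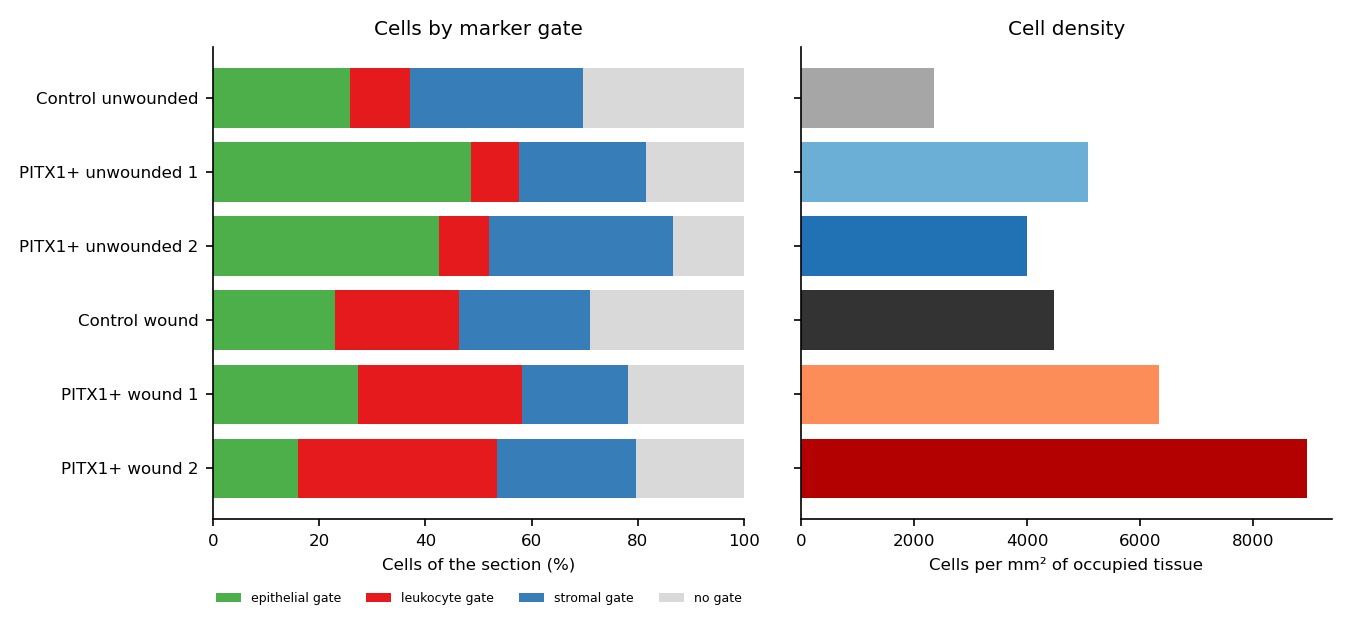
Left, share of cells (%) in each marker gate for the 6 male sections; right, cells per mm² of occupied tissue, 1 bar per section. The 2 PITX1+ wounds have the widest leukocyte band (30.9% and 37.5%) and the highest densities (6332 and 8946 cells per mm²).

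Over whole sections, edgeR's quasi-likelihood test separated PITX1+ wounds from PITX1+ unwounded skin at an adjusted p under 0.05 in 129 of 328 genes (39.3%). Of these, 79 rose (24.1% of the panel) and 50 fell (15.2%), and the median log2 fold change over all 328 genes was 0.03. The 2 wounds and the 2 unwounded sections did not overlap in 254 genes (77.4%). The panel was chosen by the study for skin and immune cell types, so these shares do not carry over to the transcriptome. Summed sections cannot tell fewer cells of a type from less RNA per cell. Scaling to the transcripts of the epithelial marker genes in place of the section's total moved the median of all genes to 0.74 and the split to 104 higher and 15 lower genes, 94 of them shared with the 129. Leaving out PITX1+ wound 1 gave 47 calls and leaving out PITX1+ wound 2 gave 18. With the female sections taken as PITX1+ in place of the male ones, 159 genes passed, of which 65 were among the 129. Sex, slide and the low *Pitx1* of those sections cannot be told apart. Adding the female sections to the male ones left 34 calls, all among the 129. Of these 32 rose and 2 fell, beside 79 and 50, so most calls of genes that fell were lost.

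Among the 10 largest increases were 4 chemokines that draw neutrophils or monocytes and 4 genes of neutrophils, with *Saa3* and *Spp1*, described below, as the others. *Cxcl5*, a ligand of the neutrophil receptor CXCR2, was counted at 88.6 and 9.46 CPM in the unwounded sections and 3638 and 3003 CPM in the wounds (log2 fold change 6.22, SE 0.94, adjusted p = 0.000833). *Cxcl3*, another CXCR2 ligand, stood at 50.2 and 18.9 against 1578 and 2726 CPM (log2 fold change 6.17, SE 0.71, adjusted p = 0.000275). For both ligands every wound lay more than an order of magnitude above every unwounded section. *Ccl4* and *Ccl3*, which attract monocytes and other leukocytes, stood at 15.3 and 2.45 and at 126 and 8.06 CPM in unwounded sections 1 and 2. In PITX1+ wounds 1 and 2 *Ccl4* reached 458 and 564 CPM and *Ccl3* 2848 and 3130.3, with log2 fold changes of 6.02 (adjusted p = 0.000678) and 5.64 (adjusted p = 0.00298). Both were higher in unwounded section 1 than in 2.

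Of the 6 CXC chemokines on the panel 3 rose and none fell, against 24.1% and 15.2% of all genes. Their median log2 fold change was 2.17, against 0.03 over all genes. *Cxcl1*, also a CXCR2 ligand, stood at 1229 and 112 CPM in unwounded sections 1 and 2 and at 2551 and 1919 CPM in the wounds and did not pass (log2 fold change 1.87, adjusted p = 0.0958), but it passed under 4 of 19 alternatives and stood at 4.47 without unwounded section 1. Of 7 CC chemokines 4 rose and 1 fell, against 24.1% and 15.2% of all genes. The 1 that fell was *Ccl19*, a ligand of CCR7 made by stromal cells, at 1026 and 926 CPM unwounded and 444 and 273 CPM wounded (log2 fold change -1.30, SE 0.45, adjusted p = 0.0439), a call lost under 10 of 19 alternatives. Of 6 chemokine receptors 5 rose, led by *Cxcr2* (96.1 and 42.7 to 1501 and 2978 CPM, log2 fold change 5.23) and *Ccr1* (338 and 233 to 3672 and 5834 CPM, 4.27).

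All 8 neutrophil genes rose, against 24.1% of all genes, with a median log2 fold change of 5.03. *S100a8*, a subunit of the calprotectin that neutrophils and stressed keratinocytes make, was counted at 601 and 291 CPM unwounded and 11739.9 and 18710.4 CPM in the wounds (log2 fold change 5.30, SE 0.61, adjusted p = 0.000275). *Trem1*, an activating receptor of neutrophils and monocytes, stood at 63.0 and 23.8 against 1513 and 2110.5 CPM (log2 fold change 5.58), and *Mmp9*, the gelatinase of neutrophil granules, at 197 and 123 against 3822 and 6595 CPM (5.24). *S100a8*, *Trem1* and *Mmp9* were picked from genes whose wounds and unwounded sections did not overlap, as was so for 254 of 328 genes (77.4%). *Il1b*, the gene of a cytokine central to acute inflammation, rose from 551 and 216 to 6428 and 12237 CPM (log2 fold change 4.82, adjusted p = 0.000502). The list of interleukin 1 family and other cytokine genes had 9 of 12 members that rose, *Csf3* among them, the growth factor of neutrophils (42.7 and 12.3 to 221 and 401 CPM, log2 fold change 3.71). *S100a8*, *Trem1*, *Mmp9*, *Cxcr2*, *Il1b*, *Ccr1* and *Cxcl3* passed under each of the 19 alternatives run on them. Of the 64 genes named here that passed over whole sections, 10 did so under every one of the 19, and 54 were lost under 1 or more. Leaving out PITX1+ wound 1 lost 33 of the 64 and leaving out wound 2 lost 48, against 5 and 8 without unwounded sections 1 and 2. In each of these fits 1 group is a lone section, which is assumed to vary like the other group. Adding the female unwounded sections lost 46, and setting them in place of the male ones 30.

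**Figure D2:**
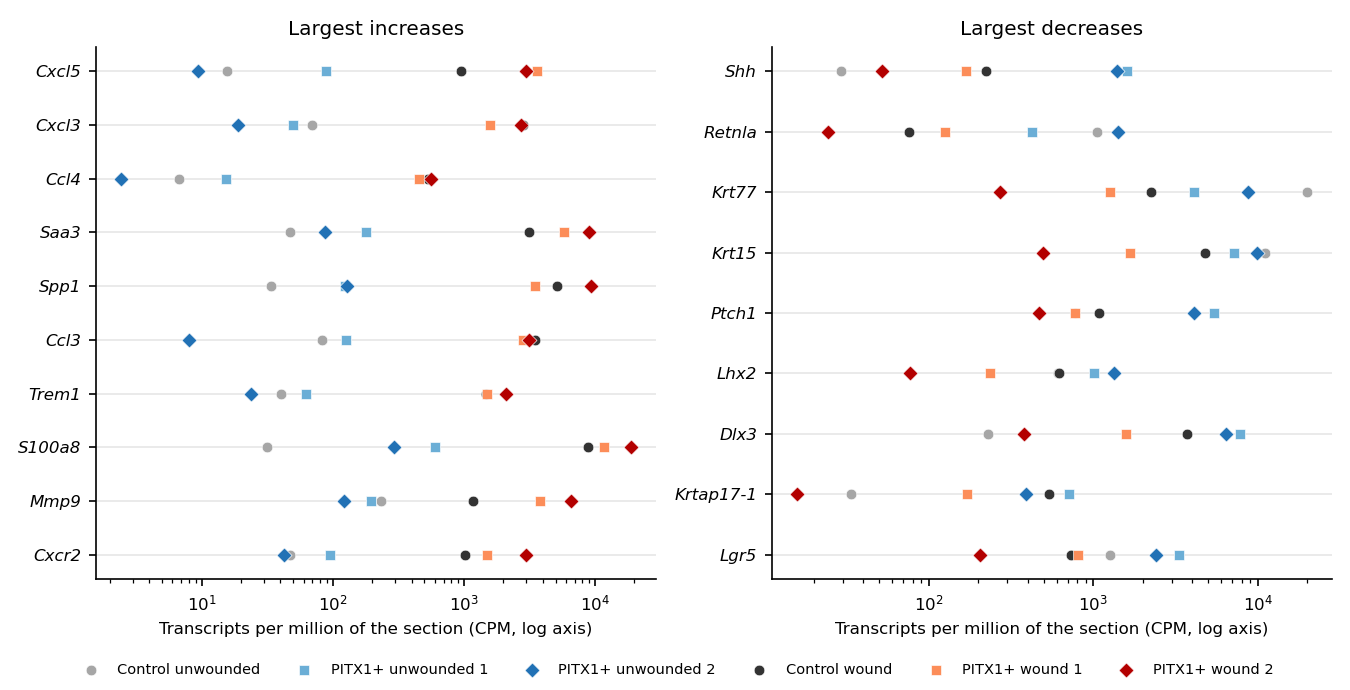
CPM of the section (log axis) for genes with the largest increase (left) and decrease (right), each point 1 section. Genes were taken among those past an adjusted p of 0.05 whose PITX1+ wounds and unwounded sections did not overlap. Non-overlap, found in 254 of 328 genes (77.4%), was thus set by the choice. Among the decreases *Shh*, *Dlx3*, *Krtap17-1* and *Ptch1* are higher in the Control wound than in Control unwounded skin.

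RefSeq promoters (build GRCm38.p6, 250 bases before to 50 after the start of the gene, 5′ to 3′ on the gene's strand) are shown for 4 genes that moved far, a chemokine, an acute phase protein and a protease that rose and a keratin that fell, with the motifs of some inflammatory factors and of PITX proteins. Capitals mark matches on either strand to AP-1 (TGANTCA), C/EBP (TTNNGNAA), PITX (TAATCC) or the NF-kB site. *Cxcl3* lies at chr5:90785851-90786150 (plus strand) with 2 overlapping NF-kB matches, and *Saa3* at chr7:46715627-46715926 (minus strand) with 4 C/EBP matches, the last overlapping 1 PITX match. *Mmp3* lies at chr9:7445572-7445871 (plus strand) with 1 AP-1 and 3 C/EBP matches, and *Krt77* at chr15:101869656-101869955 (minus strand) with 2 C/EBP matches.
Cxcl3: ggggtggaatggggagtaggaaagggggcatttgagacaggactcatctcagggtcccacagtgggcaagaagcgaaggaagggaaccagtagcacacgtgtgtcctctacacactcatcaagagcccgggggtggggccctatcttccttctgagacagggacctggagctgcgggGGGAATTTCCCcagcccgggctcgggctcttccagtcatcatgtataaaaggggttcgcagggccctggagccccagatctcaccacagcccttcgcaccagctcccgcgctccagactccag
Saa3: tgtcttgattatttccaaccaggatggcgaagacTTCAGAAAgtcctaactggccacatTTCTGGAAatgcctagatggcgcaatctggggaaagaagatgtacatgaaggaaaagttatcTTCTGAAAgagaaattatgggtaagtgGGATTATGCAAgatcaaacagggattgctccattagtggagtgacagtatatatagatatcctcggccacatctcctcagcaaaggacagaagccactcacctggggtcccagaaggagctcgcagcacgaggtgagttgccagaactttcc
Mmp3: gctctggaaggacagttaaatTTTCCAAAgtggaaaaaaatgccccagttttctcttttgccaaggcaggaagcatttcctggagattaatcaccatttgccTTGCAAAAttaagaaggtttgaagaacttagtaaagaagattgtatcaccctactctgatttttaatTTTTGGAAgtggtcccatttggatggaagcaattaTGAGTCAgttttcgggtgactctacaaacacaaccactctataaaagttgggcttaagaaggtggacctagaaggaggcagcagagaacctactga
Krt77: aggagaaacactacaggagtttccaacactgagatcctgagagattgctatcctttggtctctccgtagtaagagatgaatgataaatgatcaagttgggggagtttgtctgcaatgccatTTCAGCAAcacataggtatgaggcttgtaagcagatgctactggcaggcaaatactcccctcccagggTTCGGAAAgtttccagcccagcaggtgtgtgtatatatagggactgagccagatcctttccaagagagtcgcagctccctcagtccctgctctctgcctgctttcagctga
Among 32851 RefSeq mouse promoters of this length, 7.81% hold the AP-1 letters, 40.7% the C/EBP letters, 7.06% the PITX letters and 4.51% the NF-kB site, so a C/EBP match is common anywhere. A promoter was matched for 238 of the 328 panel genes, 58 of the 79 that rose and 38 of the 50 that fell, and with so many members unmatched a comparison of their motif shares is void and none is given.

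Of 16 macrophage and monocyte genes 12 rose and 2 fell, against 24.1% and 15.2% of all genes. *Retnla*, 1 of the 2, was among the largest falls of the panel. *Spp1*, the gene of osteopontin, stood at 124 and 127 CPM unwounded and 3482 and 9304 CPM wounded (log2 fold change 5.93, SE 0.64, adjusted p = 0.000275). *Arg1*, the arginase of repair macrophages that keratinocytes also express, rose from 3055 and 469 to 9885 and 14160.4 CPM (log2 fold change 2.96, adjusted p = 0.0128). The unwounded sections differed severalfold in *Arg1*, and its call was lost under 4 of 19 alternatives, among them leaving out either PITX1+ wound, with log2 fold changes from 1.03 to 4.87. In contrast *Retnla*, a marker of alternatively activated resident macrophages, fell from 422 and 1418 to 126 and 24.4 CPM (log2 fold change -3.52, SE 0.79, adjusted p = 0.00694), and *Mgl2*, a lectin of dermal macrophages and dendritic cells, from 1634 and 2312 to 714 and 497 CPM (log2 fold change -1.54). The median of the list was 1.89. *Retnla* differed severalfold between the unwounded sections.

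Of 14 lymphocyte genes 8 rose and none fell, against 24.1% and 15.2% of all genes (median log2 fold change 2.45). Among those that rose was *Il7r*, the interleukin 7 receptor (80.4 and 91.1 to 583 and 856 CPM). *Foxp3*, the factor of regulatory T cells, rose from 30.6 and 31.2 to 212 and 265 CPM. *Igkc*, the antibody light chain, rose from 55.2 and 26.6 to 204 and 402 CPM. *Foxp3* and *Igkc* turned direction with female in place of male unwounded sections, to -0.24 and -2.44 on the log2 scale. Dendritic cell genes rose in 3 of 4 cases, *Itgax* (CD11c) from 88.6 and 86.2 to 513 and 1026 CPM. The mast cell and basophil genes split. *Hdc*, the histamine-forming enzyme that neutrophils also express, rose from 215 and 169.5 to 2488 and 3752 CPM (log2 fold change 4.23), while *Mcpt4*, a protease of connective tissue mast cells, fell from 948 and 875 to 345 and 331 CPM (-1.25, adjusted p = 0.0494), a call lost under 11 of 19 alternatives and turned to 0.86 with female sections in place of male.

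Acute phase genes and several metalloproteinases rose. *Saa3*, an acute phase apolipoprotein made by macrophages and fibroblasts, was counted at 178 and 86.9 CPM unwounded and 5845 and 8949 CPM wounded (log2 fold change 6.01, SE 0.60, adjusted p = 0.000275). *Timp1*, an inhibitor of metalloproteinases, rose from 219 and 146 to 2397 and 2058 CPM (log2 fold change 3.78), and *Ptx3*, a soluble pattern recognition protein, from 89.7 and 137 to 709.5 and 359.7 CPM (2.38), so that all 3 acute phase genes rose. With female unwounded sections in place of male ones the *Saa3* difference was 0.54 on the log2 scale (adjusted p = 0.318 by edgeR), while *Timp1* passed under each of its 19 alternatives.

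Of 8 metalloproteinase and inhibitor genes 4 rose and 1 fell, against 24.1% and 15.2% of all genes. *Mmp3*, stromelysin 1, stood at 478 and 796 CPM unwounded and 7375 and 19972 CPM wounded (log2 fold change 4.69, SE 0.65, adjusted p = 0.000565), and *Mmp12*, the macrophage elastase, at 201 and 179 and 2277 and 7193 CPM (log2 fold change 4.90, and -0.13 with female sections in place of male). *Timp3*, an inhibitor bound to the matrix, fell from 7279.5 and 8914 to 1909 and 915 CPM (log2 fold change -2.39, SE 0.43, adjusted p = 0.00224, 0.18 with female sections).

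Among 13 collagen and matrix genes 4 rose and 2 fell around a median of 0.17, shares near those of all genes (24.1% and 15.2%). *Tnc*, tenascin C of provisional matrix, rose from 1577 and 1003 to 8929 and 12017 CPM (log2 fold change 3.22, SE 0.48, adjusted p = 0.000833), while its relative *Tnxb*, tenascin X of mature dermis, fell from 4821 and 6323 to 1962 and 938 CPM (log2 fold change -1.81). With female sections in place of male the *Tnc* difference was 0.21 and not past the threshold. *Abca8a*, a transporter of resting fibroblasts, was the 1 of 8 fibroblast genes that fell (1423 and 2254 to 388 and 284 CPM, log2 fold change -2.28), again near the share of all genes, and none rose. *Des*, desmin of the muscle layer under the skin, fell from 17685 and 46787 to 7479 and 5980.1 CPM (log2 fold change -2.07, SE 0.52, adjusted p = 0.0101), a call lost under 6 of 19 alternatives. The unwounded sections differed widely in it, and the difference was 0.09 with female sections in their place. None of 8 endothelial genes passed (median 0.21).

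Most small proline-rich and protease inhibitor genes of the panel rose over whole sections, and 1 of 3 stress keratins did. Of 5 small proline-rich proteins, which crosslink into the cornified envelope, 4 rose, against 24.1% of all genes (median log2 fold change 3.60). *Sprr2a3* stood at 1009 and 944 CPM unwounded and 9359 and 11240.2 CPM wounded (log2 fold change 3.60, SE 0.44, adjusted p = 0.000297). *Sprr2d* stood at 915 and 66.2 against 6528 and 11720.2 CPM (log2 fold change 4.41) and *Sprr1b* at 607 and 88.6 against 4326 and 3556 CPM (3.64). In *Sprr2d* and *Sprr1b* unwounded section 1 lay severalfold above section 2 and still below both wounds. The calls of *Sprr2d* and *Sprr1b* were lost under 4 and 3 of 19 alternatives, among them leaving out either PITX1+ wound, and with female sections in place of male the differences were 0.93 and 1.19.

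Of 7 epithelial protease inhibitors 5 rose, against 24.1% of all genes. Leading them were the stefins *Cstdc5* and *Stfa3*, which block cysteine proteases. *Cstdc5* rose from 418 and 172 to 5951 and 6841 CPM (log2 fold change 4.62). *Stfa3* rose from 608 and 268 to 3342 and 3134 CPM (3.05). *Slpi*, which blocks neutrophil elastase and is made by epithelia and by neutrophils, rose from 4679.6 and 1076 to 10064 and 10395 CPM (log2 fold change 1.99, SE 0.63, adjusted p = 0.0295), a call lost under 8 of 19 alternatives, with log2 fold changes from 0.67 to 3.42 over all 19. Within the marker gates described below, 5 of the 7 inhibitors passed in leukocyte-gated cells (median log2 fold change 3.51), 5 in stromal-gated cells (3.27) and 0 in epithelial-gated cells (2.00), where no gene of any kind passed. Of the small proline-rich genes 5 of 5 passed in leukocyte-gated cells (3.25), 3 of 4 in stromal-gated cells (3.83) and 0 of 5 in epithelial-gated cells (4.22). With female sections in place of male the differences of *Sprr2a3*, *Cstdc5* and *Stfa3* were -0.50, -0.08 and -0.03 on the log2 scale.

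Of the 3 stress keratins only *Krt16* passed, at 6452 and 1760.0 CPM unwounded and 13722 and 9395 CPM wounded (log2 fold change 1.63, SE 0.58, adjusted p = 0.0482), close to the threshold and lost under 9 of 19 alternatives. *Krt6a* was counted at 12059.8 and 5778 CPM unwounded and 10957 and 8963 CPM wounded, and *Krt17* at 60793 and 30114 and 46603 and 34623 CPM. The groups overlapped in both, with log2 fold changes of 0.32 (SE 0.46) and -0.01 (SE 0.49). *Krt17* turned to 0.70 per epithelial transcript, short of the threshold, and was -1.15 and past it (adjusted p = 0.00662 by edgeR) with female sections in place of male.

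Of 12 epidermal differentiation genes 1 rose and 3 fell (median 0.49), against 24.1% and 15.2% of all genes. *Krt77*, a keratin of sweat ducts and suprabasal epidermis, fell from 4068 and 8760.0 to 1258 and 271 CPM (log2 fold change -2.97, SE 0.63, adjusted p = 0.00520), and *Flg2*, a filaggrin relative of the cornified layer, from 3728 and 5686 to 1595 and 937 CPM (log2 fold change -1.74). Of 13 basal and adhesion genes 3 fell and none rose, against 15.2% and 24.1% of all genes. The largest fall was in *Krt15*, a keratin of quiet basal and bulge cells, from 7147 and 9839 to 1660.3 and 496 CPM (log2 fold change -2.87, SE 0.52, adjusted p = 0.00256), followed by *Lama5*, a laminin chain (-1.50 on the log2 scale), and *Trp63*, the master factor of stratified epithelium (-1.27, lost under 8 of 19 alternatives). None of 8 desmosomal cadherins passed (median -0.25). Epithelial-gated cells were 45.5% of cells in the unwounded sections and 21.6% in the wounds on average, and the part of that difference in these falls was not tested. *Krt15* and *Trp63* are themselves genes of that gate, so the share is not independent of their falls.

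*Shh*, the ligand of growing hair matrix, fell most of all genes and was counted at 1605 and 1399 CPM unwounded and 168 and 51.6 CPM wounded (log2 fold change -3.68, SE 0.59, adjusted p = 0.00117). Its receptor and target *Ptch1* fell from 5448 and 4110.5 to 775 and 467 CPM (log2 fold change -2.80, SE 0.42, adjusted p = 0.000833). In both genes PITX1+ wound 2 was lowest, and both were picked from genes whose wounds and unwounded sections did not overlap. *Dlx3*, a factor of hair and epidermal differentiation, fell from 7745 and 6409.9 to 1578 and 376 CPM (log2 fold change -2.77, SE 0.56, adjusted p = 0.00429), and *Lhx2*, a factor of follicle progenitors, from 1003 and 1332 to 234 and 77.1 CPM (log2 fold change -2.80). *Lgr5*, a stem cell receptor of the lower follicle, fell from 3329 and 2408 to 804 and 203 CPM (-2.43), and *Krtap17-1*, a hair shaft protein, from 709.7 and 390.2 to 171 and 15.8 CPM (-2.52, adjusted p = 0.0397, lost under 10 of 19 alternatives). *Lhx2* and *Lgr5* were lost under 3 of 19 alternatives each, at -0.94 and -0.38 with female sections in place of male.

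In all, 9 of 12 hair follicle genes fell and none rose, against 15.2% and 24.1% of all genes. Their median log2 fold change, -2.00, was the lowest of the lists. Their summed level was 40169 and 34872 CPM in unwounded skin and 13020.2 and 6826 CPM in the wounds. Of 15 Wnt and Hedgehog genes 6 fell and none rose (median -1.15), including the Wnt inhibitor *Wif1* (3292 and 2768 to 1039 and 438 CPM). Of 13 BMP and TGF-beta genes 4 fell and 1 rose, against 15.2% and 24.1% of all genes. *Bmp4*, a ligand of the dermal papilla, fell from 1519 and 1474 to 428 and 148 CPM (log2 fold change -2.27). The BMP target *Id3* fell from 7926 and 8545 to 3888 and 2942 CPM (-1.10). *Bmp4* was lost under 3 of 19 alternatives, at -0.80 with female sections in place of male. *Wif1* and *Id3* turned to 0.33 and 1.30 with female sections in place of male.

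The cell cycle list had 1 of 10 genes past the threshold, *Uhrf1*, a factor of DNA methylation upkeep, which fell from 1832 and 2021 to 863 and 482 CPM (log2 fold change -1.38, 0.59 with female sections), around a median of -0.75, a count below the 15.2% of all genes that fell and the 39.3% that passed either way. Of 10 insulin-like growth factor genes 3 binding proteins fell, against 15.2% of all genes. *Igfbp4* fell from 4659.6 and 4522 to 1611 and 1122 CPM. *Igfbp5* fell from 5469 and 9536 to 3403 and 1552 CPM, a call lost under 8 of 19 alternatives. Among 7 retinoid genes 2 rose, near the 24.1% of all genes that did, with *Crabp1*, a retinoic acid binding protein of fibroblasts, from 145 and 363 to 1923 and 2974 CPM (log2 fold change 3.51). Of 8 immediate early genes 2 rose, also near that share, with *Junb* from 2089.9 and 1404 to 4006 and 4870.3 CPM (1.54), and none of 6 EGF receptor family genes passed, with *Hbegf*, a ligand of wound keratinocytes, at 1.36 (adjusted p = 0.0677) but past the threshold under 6 of 19 alternatives. The sebaceous list had 1 of 7 genes that fell, *Elovl6*, a fatty acid elongase (-1.52, lost under 6 of 19 alternatives), and the nerve and pigment list 1 of 7, *Ncmap* of myelin (-1.68, lost under 5 of 19 alternatives), both near the 15.2% of all genes that fell.

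**Figure D3:**
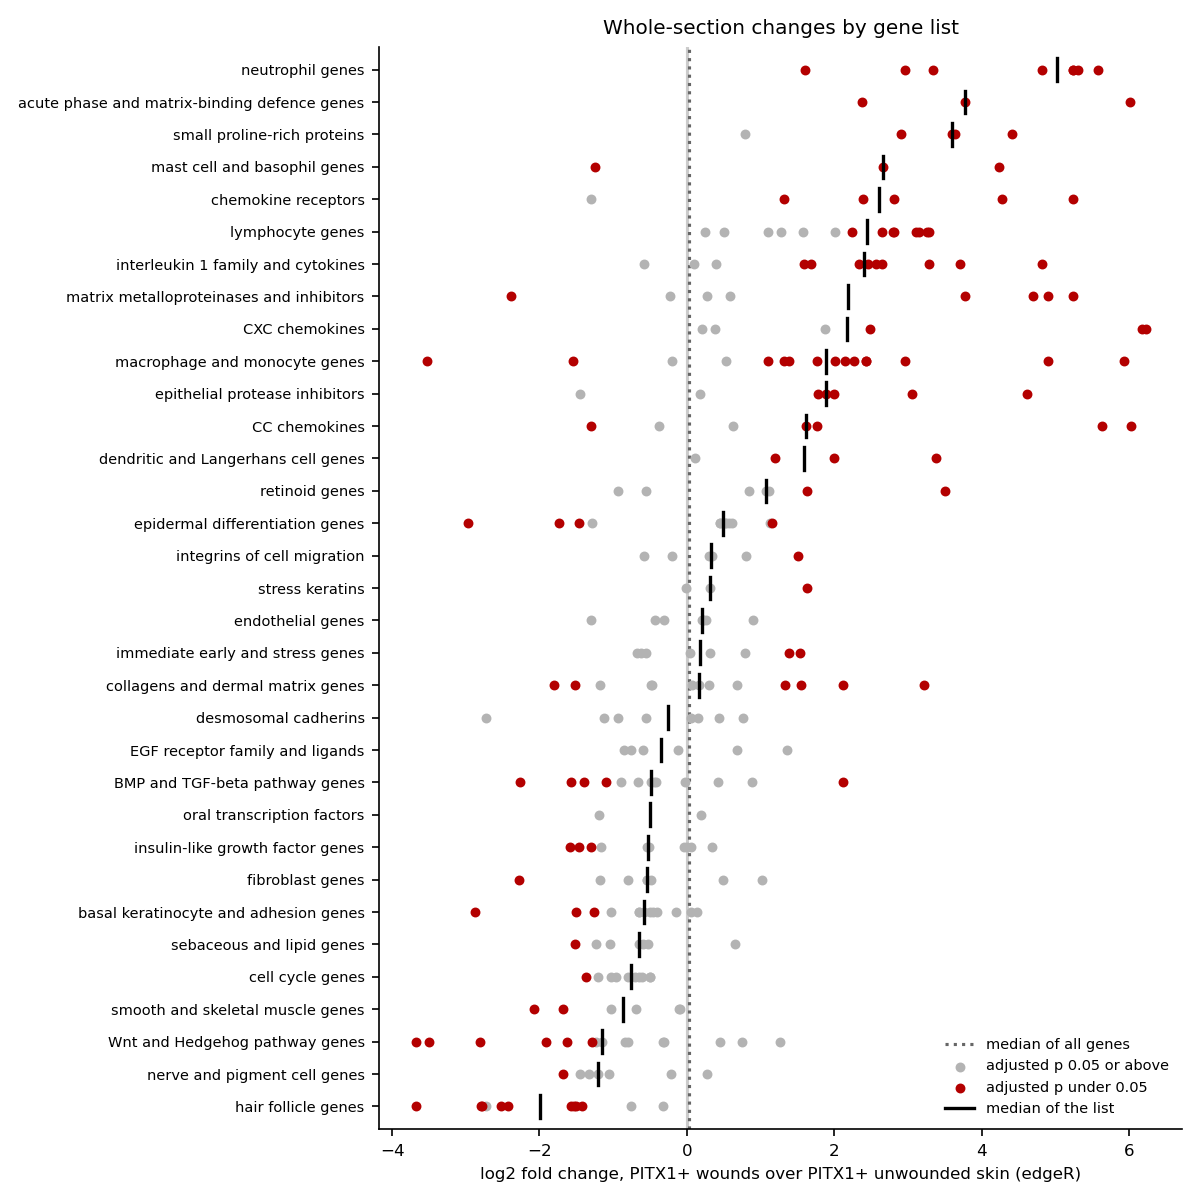
Log2 fold change (PITX1+ wounds over PITX1+ unwounded skin, edgeR, 2 sections each) of each gene, 1 row per gene list, with genes past an adjusted p of 0.05 in red, the median of the list as a bar and the median of all 328 genes as a dotted line. Neutrophil genes lie highest (median 5.03) and hair follicle genes lowest (median -2.00).

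In Control skin, with 1 section a side and hence no test, neutrophil genes and small proline-rich genes were higher in the wound, and most hair follicle genes were not lower. Between the Control wound and Control unwounded skin 144 of 328 genes (43.9%) differed 2-fold or more, 107 higher in the wound (32.6%) and 37 lower (11.3%), and the median over all genes was 0.34 on the log2 scale. Neutrophil genes had a Control median of 3.08 and small proline-rich proteins one of 3.82, beside 5.03 and 3.60 in PITX1+ skin. Hair follicle genes had a Control median of 0.75, beside -2.00, and cell cycle genes one of 1.21, beside -0.75. The summed level of the hair follicle genes was slightly lower in the Control wound (18723 CPM) than in Control unwounded skin (20442 CPM).

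*Krt16* and *Slpi* were low in Control unwounded skin and high in all 3 wounds. *Krt16* stood at 137 CPM in Control unwounded skin and 12727 CPM in the Control wound, beside 6452 and 1760.0 and 13722 and 9395 CPM in the PITX1+ sections. *Slpi* stood at 51.5 and 5146 CPM in Control skin, beside 4679.6 and 1076 and 10064 and 10395 CPM. For *Krt16* the difference of the 2 changes, an interaction in a fit of all 6 sections in which the lone Control sections are assumed to vary like the PITX1+ ones, was -4.74 on the log2 scale (SE 1.03, adjusted p = 0.0609 by edgeR), and for *Slpi* -4.48 (adjusted p = 0.0901).

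The interaction passed for 3 of 328 genes (0.915%), *Dlx3*, *Shh* and *Lrrc15*, the last a membrane protein known from activated fibroblasts. *Dlx3* stood at 228 CPM in Control unwounded skin and 3689 CPM in the Control wound, against a fall from 7745 and 6409.9 to 1578 and 376 CPM in PITX1+ skin (interaction -6.62, SE 1.06, adjusted p = 0.0205). *Shh* stood at 29.1 and 221 CPM in Control skin (interaction -6.44, SE 1.14, adjusted p = 0.0295). *Lrrc15* stood at 112 and 1817 CPM in Control skin and at 4808 and 2634 against 1347 and 1369 CPM in PITX1+ skin (interaction -5.15, SE 0.77, adjusted p = 0.0205). With female unwounded sections the *Lrrc15* difference within PITX1+ skin was 0.20, beside -1.28 with the male ones. Each of the 3 was low in Control unwounded skin, high in PITX1+ unwounded skin and intermediate in the Control wound. No gene passed in edgeR without PITX1+ wound 1, without PITX1+ wound 2 or under library size scaling (56, 28 and 51 at an unadjusted p under 0.05), DESeq2 called 15 on all sections, and 20 passed without PITX1+ unwounded section 1 and 24 without section 2.

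Within gates, the leukocyte-gated and stromal-gated sums changed about as often as whole sections. Genes of all gates were left out of these tests. In leukocyte-gated cells 109 of 302 genes passed (36.1%), 60 higher (19.9%) and 49 lower (16.2%), and in stromal-gated cells 123 of 298 (41.3%), 69 higher (23.2%) and 54 lower (18.1%). Of the genes that rose 47 were shared, 78.3% of the leukocyte and 68.1% of the stromal list. Outlines of cells can take in transcripts of neighbours, and keratinocyte genes such as *Sprr2d* rose in both gates, and the part of such transcripts in the shared calls was not tested.

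In leukocyte-gated cells 3 of 6 CXC chemokines rose and none fell, and of 7 CC chemokines 2 rose and 1 fell (medians 2.05 and -0.01, against 0.04 over all genes of the gate). Of 11 macrophage and monocyte genes 3 rose and 3 fell (median 0.35), against 19.9% and 16.2% of all genes of the gate. *Retnla* fell from 5397 and 14401 to 488 and 47.8 CPM of the gate (log2 fold change -5.42, SE 1.08, adjusted p = 0.00812) and *Mgl2* from 21767 and 22003 to 2838 and 1315 CPM (log2 fold change -3.52, SE 0.46, adjusted p = 0.00339). *Cxcl3* rose from 148 and 40.2 to 4263 and 6408 CPM (log2 fold change 5.84), *Cxcl5* by 5.64, *Spp1* by 5.43 and the fibroblast gene *Crabp1* by 5.57. *Des*, at 65651 and 138959 CPM in unwounded leukocyte-gated cells and 13474 and 9209.6 in the wounds, is a muscle gene that leukocytes do not make. *Abcc9* of mural and muscle cells (-3.20) and the keratinocyte factor *Barx2* (-3.15) fell in the same gate. *Wnt10a*, which the paper places in basal oral keratinocytes, had 0 counts in both unwounded sections and 37 and 43 in the wounds. It could thus enter the test only through the wounds. Without gate genes, the gate held 148984 and 198879 transcripts unwounded and 592759 and 1338272 in the wounds. For *Wnt10a* only the counts are given, since a gene that enters through the wounds alone cannot show a change in leukocytes. Without PITX1+ wound 2 no gene passed in this gate (74 had an unadjusted p under 0.05 in edgeR, against 150 genes, or 49.7%, with all 4 sections), and without wound 1 the count was 20.

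In stromal-gated cells *Cxcl5* rose from 166 and 14.7 to 13261 and 6488 CPM (log2 fold change 6.98, SE 0.93, adjusted p = 0.000450), to levels above those of the leukocyte gate (5172 and 3390.2 CPM). *Saa3* rose from 501 and 198 to 18316 and 21814 CPM (log2 fold change 6.03, SE 0.49, adjusted p = 5.33e-05) and *Tnc* from 1562 and 757 to 33314 and 35581 CPM (log2 fold change 5.07, SE 0.40, adjusted p = 5.33e-05). *Serpinb2*, an inhibitor of plasminogen activators, rose by 6.25 on the log2 scale and *Ccl3* by 5.50. Over whole sections *Serpinb2* had risen by 1.88. *Retnla* (-4.03), *Krt77* (-3.19), *Lor* (-2.98), *Abca8a* (-2.95) and *Dlx3* (-2.91) fell most. Of these, *Krt77*, *Lor* and *Dlx3* are keratinocyte genes. Without PITX1+ unwounded section 2 the count was 77.

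In epithelial-gated cells no gene passed in edgeR's quasi-likelihood test (0 of 302, smallest adjusted p = 0.0545), although 127 genes (42.1%) had an unadjusted p under 0.05 and DESeq2 called 111. Library size scaling in place of TMM called 91, and leaving out 1 section called between 20 (without PITX1+ wound 2) and 109 (without PITX1+ unwounded section 1), with 65 without wound 1 and 69 without unwounded section 2. As values, *Sprr2a3* stood at 1666 and 2247 CPM of the gate unwounded and 20823 and 35404 CPM in the wounds (log2 fold change 4.22), and *Krt16* at 11338 and 3984 and 33507 and 33102 CPM (2.39). *Shh* stood at 2995 and 3360.3 against 231 and 54.8 CPM (-4.23) and *Ptch1* at 7930.1 and 7043 against 1212 and 592 CPM (-2.78). Over the 12 hair follicle genes the median in epithelial-gated cells was -1.57, beside -2.00 over whole sections, and 0.01 over all genes of the gate. *Krt17*, at 108149.9 and 69061 and 107485 and 107879 CPM, overlapped between the groups.

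**Figure D4:**
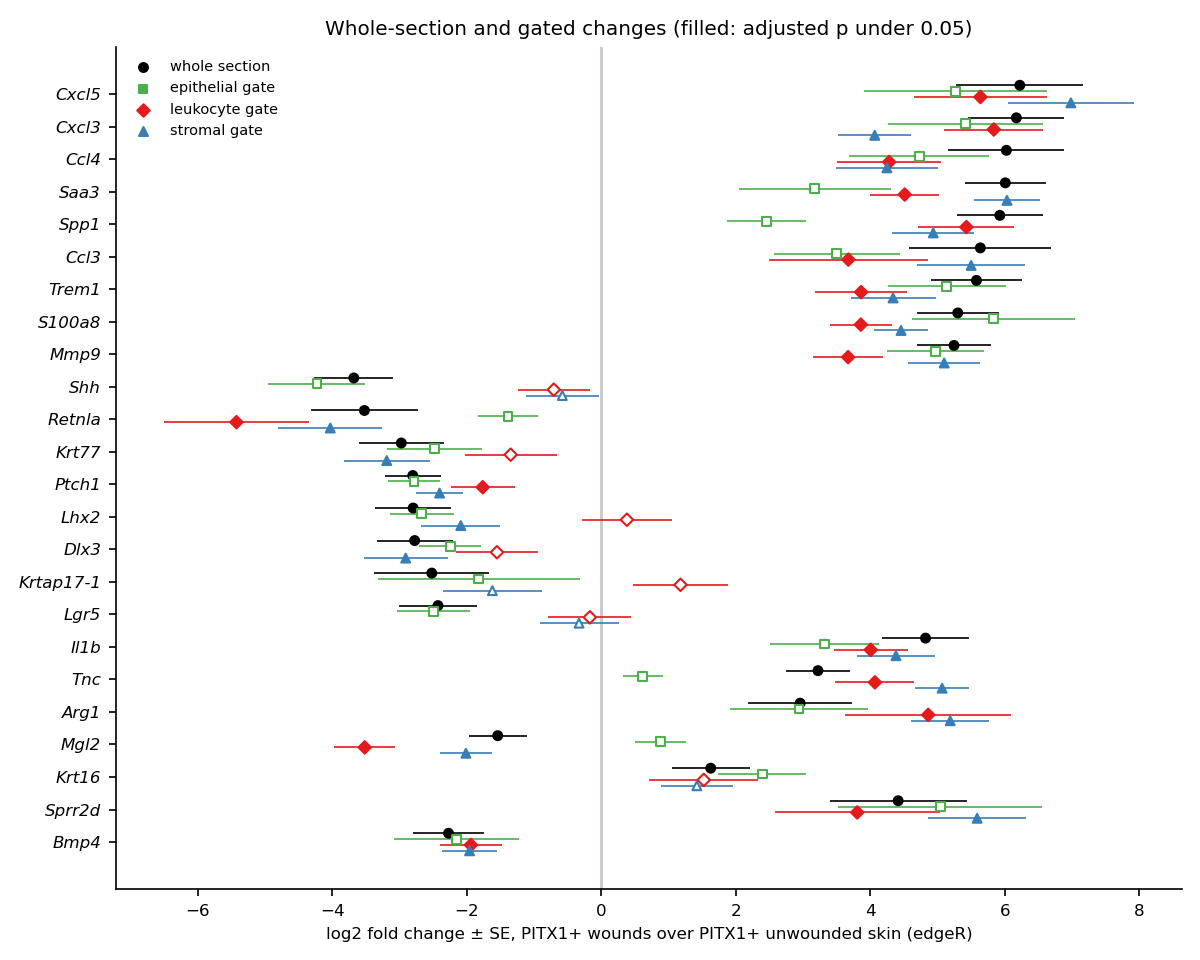
Log2 fold change ± SE (edgeR, PITX1+ wounds over PITX1+ unwounded skin) of named genes over whole sections and within the 3 marker gates; filled marks have an adjusted p under 0.05. *Cxcl5* and *Saa3* are as high in the stromal gate as over the section, *Mgl2* falls most in the leukocyte gate, and no epithelial mark is filled.

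The wounds were next read by distance from the wound. A wound stretch was taken as the run of 200 µm steps along the section in which under 15% of cells were epithelial-gated, a rule set after the data were seen. It was 3000 µm long in the Control wound and 3200 and 3400 µm in the PITX1+ wounds, against 800 µm in Control unwounded skin and 0 and 200 µm in PITX1+ unwounded skin. All 3 sections taken as wounds thus held a long stretch poor in epithelial-gated cells. In the Control wound that stretch still held 32057 CPM of stress keratins, against 24569.9 CPM beyond 2000 µm, and eschar was not separated from it. Without this stretch 108 genes passed between PITX1+ wounds and unwounded skin, 105 of them among the 129, and with only cells over 1000 µm away 107 passed, 102 of them among the 129. *Cxcl5* then had log2 fold changes of 6.20 and 6.20, beside 6.22 over whole sections, and *Shh* -4.21 and -5.08, beside -3.68.

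Neutrophil genes in the Control wound were concentrated in the stretch, at a summed 129694 CPM, and came down to 4086 CPM more than 2000 µm away. The PITX1+ wounds held 78539 and 102279 CPM in the stretch and 33089 and 42448 CPM beyond 2000 µm. Wound 1 was lower in between, at 10980.0 CPM from 500 to 1000 µm and 13654 CPM from 1000 to 2000 µm, while wound 2 stayed between 42448 and 53403 CPM in the 4 bands outside the stretch. PITX1+ unwounded sections held 2635 and 1787 CPM, so the far skin of both PITX1+ wounds lay more than an order of magnitude above them. *S100a8* alone stood at 768 CPM beyond 2000 µm in the Control wound and at 12519.6 and 14158 CPM in the PITX1+ wounds. The Control wound, of 1 section, gives no test of this difference.

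*Krt16* in the Control wound was highest within 500 µm of the stretch, at 28602 CPM, and stood at 199 CPM beyond 2000 µm. In the PITX1+ wounds it stood at 16949 and 10330.1 CPM beyond 2000 µm, above the 6452 and 1760.0 CPM of PITX1+ unwounded skin. The small proline-rich proteins followed the same order, with 51059 CPM near and 2948 CPM far in the Control wound and 42726 and 32540.0 CPM far in the PITX1+ wounds. Muscle genes went the other way in the Control wound, from 3739 CPM in the stretch to 38798 CPM far away, while both PITX1+ wounds stayed between 6971 and 17236 CPM in every band. The far band held 1323 cells in the Control wound and 11629 and 25498 in the PITX1+ wounds, and the bands of 1 section share its cells and slide.

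**Figure D5:**
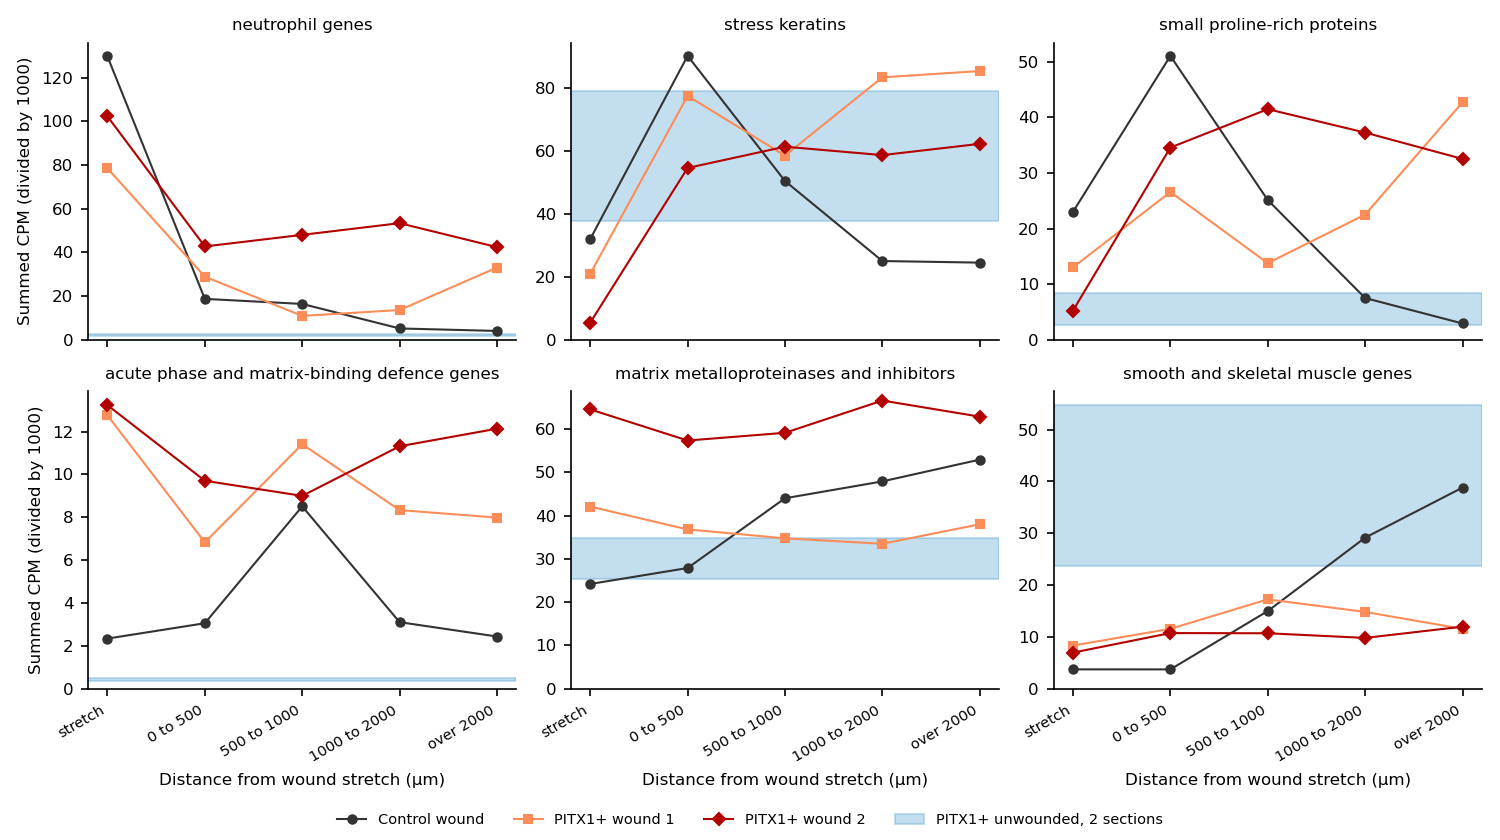
Summed CPM (divided by 1000) of 6 gene lists in the wound stretch and in 4 bands of distance from it (µm), 1 line per wound; the blue band spans the 2 PITX1+ unwounded sections. Neutrophil genes come down with distance in the Control wound, small proline-rich genes do so beyond 500 µm, and both stay above the unwounded band beyond 2000 µm in both PITX1+ wounds.

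Transcripts as a whole were spread over more of the tissue in the PITX1+ wounds than in PITX1+ unwounded skin, but not in the Control wound against Control unwounded skin. Sections were divided into squares of 50 µm, and for each gene the smallest share of occupied squares that held 50% of its transcripts was taken. For all transcripts together this share was 13.5% and 14.8% of squares in PITX1+ unwounded skin and 19.1% and 22.1% in the PITX1+ wounds. The shift in PITX1+ skin was thus not particular to the genes that rose. The Control sections went the other way, with 18.5% of squares in unwounded skin and 14.2% in the wound. The median share over the 79 genes that rose was 2.52% and 2.00% of squares in PITX1+ unwounded skin and 5.76% and 8.12% in the PITX1+ wounds, and 0.976% and 3.92% in the Control sections. For the 50 genes that fell it was 4.80% and 3.85% unwounded and 3.92% and 3.74% in the wounds, which overlapped. With squares of 25 µm it was 3.27% and 2.71% against 2.23% and 1.99%, without overlap. With squares of 100 µm it was 7.61% and 6.14% against 6.72% and 6.32%, again with overlap. Over the 199 genes that did not pass it was 6.14% and 4.85% against 6.92% and 6.65%. The share grows with the number of transcripts counted, and the part of that in the shift was not tested. The 79 genes were picked for higher counts in these same wounds, so their wider spread is not a separate result.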

How the data were processed

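Transcripts were read from 10x Genomics Xenium In Situ runs on FFPE sections. As deposited, the files hold counts of decoded transcripts per cell, a quality score for each transcript, and other values such as its position in µm and whether it lay over the nucleus. The decoding and segmentation software was not given in the sources used here, and nothing had been normalized by the authors.

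The labels list each slide's conditions as a mixture, so sections were separated by chaining cells within 100 µm (200 µm on the wounded slide), keeping groups of at least 2000 cells, and ordered by mean horizontal position. Transcripts of score 20 or more in cells with at least 10 transcripts were summed per section, and a cell entered a marker gate with at least 3 transcripts of that gate's list and more than of either other list. Sums were tested with edgeR 4.0.16 (TMM scaling, filterByExpr, quasi-likelihood test, Benjamini-Hochberg adjustment over all genes tested) in R 4.3.3, with DESeq2 1.42.0 as an alternative, and section measures with exact permutation tests in scipy 1.17.1. On simulated counts for the whole-section comparison (328 genes, 200 changed), 20% of genes changed 2-fold and 78% of those changed 4-fold were recovered, with 2.34% false calls among the others. For the interaction these were 2%, 11% and 0.781%, and for the epithelial gate 44%, 93% and 0.971%. The counts were drawn in a single run, with changes split evenly up and down and no slide effect. The simulated false calls therefore do not carry over to these sections, where slide and wounding cannot be told apart.

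Named genes were *Pitx1*, the 10 largest calls in each direction, up to 4 members of each gene list by size of change, the 5 largest calls in each direction in each gate, and the interaction calls, except 1 gene that is not reported here. The 10 largest calls were taken among genes whose PITX1+ wounds and unwounded sections did not overlap. *Ccl19*, *Id3* and *Timp3* were chosen after their values were seen. Members and gene lists were chosen with earlier results of these data known. Alternatives covered scaling, test, filters, quality, compartment, sections of the female slide taken as PITX1+ by their number of cells, and each left-out section. The filter on low counts kept all 328 genes over whole sections, so dropping it could change no call there. Several other alternatives re-sum the same 4 sections and are not independent of each other. The buccal slide was not used here beyond its number of cells.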

Additional observations from a re-analysis of the deposited data

Results flagged for a closer look

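In a fit of all 6 male sections the interaction of wounding with PITX1+ passed for *Dlx3* (-6.62 on the log2 scale, adjusted p = 0.0205 by edgeR), *Shh* (-6.44, adjusted p = 0.0295) and *Lrrc15* (-5.15, adjusted p = 0.0205). In each the PITX1+ change was downward and the Control change upward. The Control side rests on 1 section per condition, whose spread is assumed to be that of the PITX1+ sections. None of the 3 passed without PITX1+ wound 1, without PITX1+ wound 2 or under library size scaling.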

How the results depend on the processing

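No paired analysis was possible because the columns carry no replicate numbers that the labels share between wounded and unwounded sections. Counts of calls over whole sections ran from 18 to 130 when 1 section was left out, beside 129, and fell to 34 with the female unwounded sections added. DESeq2 called 151 genes, all 129 among them. The interaction count of 3 became 15 with DESeq2, 9 with all cells, 13 with transcripts of any quality and 0 with library size scaling, and ran from 0 to 24 without 1 section. The epithelial-gate count of 0 became 111 with DESeq2, 91 with library size scaling and 9 with a gate of at least 2 transcripts, and ran from 20 to 109 without 1 section. Without 1 section the leukocyte-gate count ran from 0 to 150 and the stromal-gate count from 77 to 110. With the female sections taken as PITX1+, whose *Pitx1* stood at 53.7 and 63.5 CPM, in place of the male ones, log2 fold changes turned sign for *Cstdc5* (-0.076), *Des* (0.090), *Foxp3* (-0.24), *Id3* (1.30), *Igkc* (-2.44, and -1.41 with the female sections added), *Lrrc15* (0.20), *Mcpt4* (0.86), *Mmp12* (-0.13), *Pitx1* (1.94), *Sprr2a3* (-0.50), *Stfa3* (-0.034), *Timp3* (0.18), *Uhrf1* (0.59) and *Wif1* (0.33), and the cause was not tested. *Krt17*, at -0.01, was 0.027 with the Control sections in the fit, 0.25 over 1000 µm from the wound stretch, 0.70 per epithelial transcript, 0.0036 with transcripts of any quality and 0.18 without the stretch, -1.15 and past the threshold with the female sections, and ran from -0.46 to 0.59 without 1 section. *Krt6a* ran from -0.14 to 0.95 without 1 section. Each group held 2 sections on 1 slide, and the simulated recovery of 2-fold changes was 20%, so changes of that size can be missed.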
